A study of Homo sapiens with 6 samples.

Results

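The genes described here are 10 hypoxia-responsive genes, of which 5 carry glucose into the cell and drive it through glycolysis. They were SLC2A1, HK2, PFKFB3, PFKFB4, LDHA, CA9, VEGFA, ADM, BNIP3 and NDRG1, found by matching these symbols to the symbol column of a table of 25545 genes. All 10 were present, and 8 of them passed the filter on low values that left 10721 genes for testing, whereas PFKFB4 and CA9 did not. Silencing NEAT1 in BT-549 cells was accompanied by changes in opposite directions among these genes. SLC2A1, PFKFB3 and ADM fell to between 66.0% and 73.6% of their control level, and BNIP3 and NDRG1 rose to 147% and 134%. The NDRG1 call was lost in 7 of 19 alternative settings and the PFKFB3 call in 4 of 20. HK2, LDHA and VEGFA did not pass the threshold.

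BT-549 is an established human triple-negative breast cancer (TNBC) cell line. Cells were transfected with a control siRNA (CsiRNA) or with an siRNA against the long noncoding RNA NEAT1 (NEAT1siRNA), and total RNA was taken after 48 h and sequenced as 3 libraries per group. The sample titles also carry the prefix "tet-", which usually denotes an inducible vector and which the siRNA experiment does not explain. No oxygen level is given for the cultures, both groups were grown in the same medium, and the labels speak of triplicate cultures of 1 line, so that p-values measure the spread between these cultures.

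Cells sense low oxygen through hypoxia-inducible factors (HIFs), dimers of an oxygen-labile alpha subunit (HIF1A or EPAS1) with the stable subunit ARNT. When oxygen is present, prolyl hydroxylases of the EGLN family mark the alpha subunit for destruction by the VHL ubiquitin ligase, and when oxygen is scarce the dimer accumulates and binds DNA at a short core sequence in its target genes. Many of these genes raise glucose uptake and lactate production, a metabolic state that cancer cells often adopt in the presence of oxygen as well, and most of them also respond to other factors, including MYC, which binds a sequence that contains the same letters.

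The letters of the HIF core, ACGTG or GCGTG, were sought on both strands in the 250 bases before each RefSeq gene start (GRCh38.p14). The MYC E-box CACGTG contains ACGTG on each strand, so each E-box counts as 2 cores. Of 35116 promoters of that length, 15172 (43.2%) held a core and 6.34% held CACGTG. Promoter sequences were matched for 8 of the 10 genes, with 11 gene starts in all, and 10 of the 11 starts, in 7 genes, held at least 1 core. SLC2A1 held none in this window. The stretches below show the same core letters, in capitals, upstream of genes that fell (PFKFB3, ADM), that rose (BNIP3), that had higher values without a test at the TPM filter (PFKFB4) and that did not pass the threshold (LDHA). Each is written 5′ to 3′ on the strand of its gene and shows the core nearest to that gene start. CACGT and CACGC are the core read from the opposite strand, and the PFKFB3 core shown lies in a CACGTG. Other cores within a stretch are left in lower case. These are a further core in the BNIP3 stretch and a CACGTG in the LDHA stretch.
PFKFB3, chr10:6202810-6202844, plus strand: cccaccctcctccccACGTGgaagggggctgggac
ADM, chr11:10304957-10304991, plus strand: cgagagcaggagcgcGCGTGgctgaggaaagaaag
BNIP3, chr10:131982008-131982042, minus strand: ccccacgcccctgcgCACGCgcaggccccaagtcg
PFKFB4, chr3:48556950-48556984, minus strand: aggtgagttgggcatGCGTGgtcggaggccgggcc
LDHA, chr11:18394475-18394509, plus strand: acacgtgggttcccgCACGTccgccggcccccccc

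The distance from the core to the gene start was 107 bases for PFKFB3, 101 for ADM, 104 for BNIP3, 166 for PFKFB4 and 73 for LDHA. The BNIP3 window held 6 cores, with 1 CACGTG among them, and the LDHA window 5, with 2 CACGTG. The PFKFB3 window shown held 2, both from 1 CACGTG, and the ADM and PFKFB4 windows held 1 each. The other PFKFB3 and LDHA starts held 1 core each. The PFKFB3 and PFKFB4 starts shown, at chr10:6202932 and chr3:48556803, lie inside the annotated genes. A match is a description of these letters and not a binding site, and binding was not measured here.

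Values are TPM (transcripts scaled by gene length to the same total in every library). Recovered reads, which could be worked back from the deposited values, came to between 15786936 and 20343804 per library. Between 64.4% and 68.1% of all TPM went to 4 short noncoding RNAs. Differences were tested with limma on log2(TPM + 1), a scale that understates the change of low genes, wherever the mean TPM over the 6 libraries reached 1. A change was called at a Benjamini-Hochberg adjusted p under 0.05 over all 10721 genes. NEAT1 itself was at 13.4, 7.68 and 10.8 TPM in CsiRNA cells and at 4.36, 2.96 and 2.73 TPM in NEAT1siRNA cells, a log2 fold change of -1.41 ± 0.140 (SE, n = 3 per group, limma adjusted p = 1.21e-07). Over all genes, 1498 (14%) were called, 963 (8.98%) of them lower and 535 (4.99%) higher. With each library centred on the median gene instead, 954 were lower and 1158 higher, so the balance of directions depended on the scaling. Read composition also differed between libraries of the same group. Each library's deviation from the mean of its own group was correlated with transcript GC content across 10440 genes. The correlation ran from -0.729 in NEAT1siRNA library 2 to 0.676 in NEAT1siRNA library 1.

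Of the 8 genes tested, 3 were lower, 2 were higher and 3 were not called, and the median log2 fold change was -0.14 against -0.04 over all genes tested. In bulk libraries such as these, fewer expressing cells and less RNA per cell cannot be told apart. For 6 of these 8 genes, no NEAT1siRNA library overlapped the CsiRNA libraries and all 3 were on the same side, against 30.3% of all genes tested. The genes were chosen with earlier results of these data known, so this contrast is a description and not a test.

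**Figure D1:**
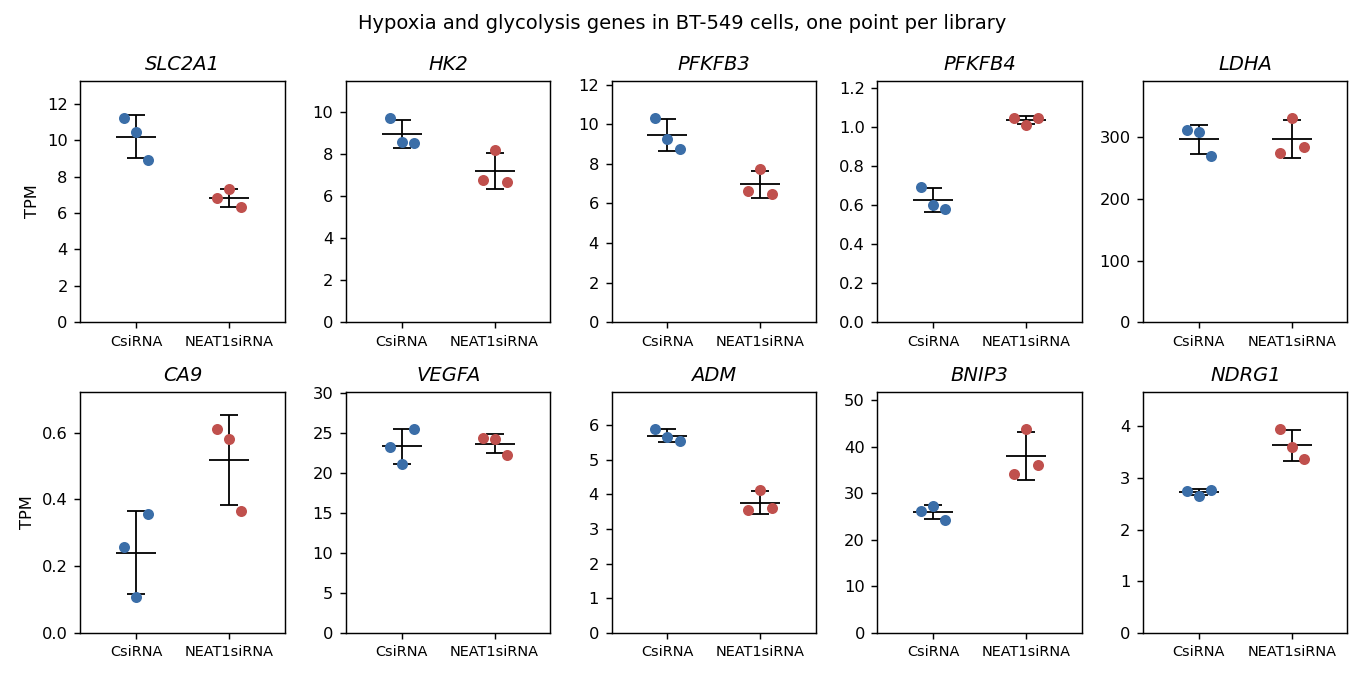
TPM of the 10 genes (vertical axes, each from 0) in the 3 CsiRNA libraries (blue) and the 3 NEAT1siRNA libraries (red), with the mean as a long bar and the SD as an error bar. SLC2A1, HK2, PFKFB3 and ADM have all red points below the blue ones, PFKFB4, CA9, BNIP3 and NDRG1 have them above, and LDHA and VEGFA overlap.

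By level in CsiRNA cells, LDHA was highest, at a mean of 297 TPM, followed by BNIP3 at 25.9 and VEGFA at 23.3 TPM, whose library ranges overlapped. SLC2A1 (10.2 TPM), PFKFB3 (9.45 TPM) and HK2 (8.97 TPM) came next with overlapping ranges, then ADM (5.70 TPM), NDRG1 (2.72 TPM), PFKFB4 (0.626 TPM) and CA9 (0.240 TPM). In NEAT1siRNA cells HK2 (7.23 TPM), PFKFB3 (6.96 TPM) and SLC2A1 (6.83 TPM) stood in the reverse order, again with overlapping ranges. BNIP3, at 38.1 TPM, no longer overlapped VEGFA, at 23.7 TPM, and ADM (3.76 TPM) came to overlap NDRG1 (3.64 TPM).

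SLC2A1 encodes GLUT1, the main glucose transporter of many tumor cells. It lies at chr1:42925353-42958893 on the minus strand (GRCh38, GENCODE v44, as for all positions of genes given here). Its level was 11.2, 10.4 and 8.90 TPM in CsiRNA cells and 6.84, 7.32 and 6.34 TPM in NEAT1siRNA cells. All NEAT1siRNA values were below all CsiRNA values, and the log2 fold change was -0.51 ± 0.0991 (SE, limma adjusted p = 0.000935). The other glucose transporter considered, SLC2A3 (GLUT3), had 13 to 22 recovered reads per library. SLC2A1 made up 97.6% ± 0.313 (SD, n = 3) of the TPM of this pair in CsiRNA cells and 97.2% ± 0.248 in NEAT1siRNA cells, and these shares overlapped.

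HK2 (chr2:74834127-74893359, plus strand) encodes a hexokinase, which binds mitochondria and traps glucose as glucose-6-phosphate. Its level was 9.74, 8.60 and 8.56 TPM in CsiRNA cells and 6.77, 8.22 and 6.69 TPM in NEAT1siRNA cells. The groups did not overlap, with NEAT1siRNA library 2 close to the control range. The log2 fold change of -0.28 ± 0.0987 (95% interval -0.48 to -0.08) did not pass the threshold after adjustment (limma adjusted p = 0.0592). Without NEAT1siRNA library 2 it did, at -0.36 with an adjusted p of 0.00460. It also passed with each library centred on its median gene (adjusted p = 0.0326) and without the 4 short noncoding RNAs (adjusted p = 0.0293). HK1, the other abundant hexokinase, fell by 0.31 on the log2 scale (adjusted p = 0.0298). The HK2 share of hexokinase TPM was between 32.5% and 34.4% in CsiRNA cells and between 30.7% and 36.4% in NEAT1siRNA cells, so that the 2 ranges overlapped.

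PFKFB3 and PFKFB4 encode enzymes that make and break fructose 2,6-bisphosphate, the strongest activator of phosphofructokinase. The PFKFB3 isoform is mostly a kinase and favors glycolysis. PFKFB3 (chr10:6144934-6254644, plus strand) was at 10.3, 9.26 and 8.76 TPM in CsiRNA cells and at 6.63, 7.76 and 6.49 TPM in NEAT1siRNA cells. All NEAT1siRNA values were lower, with a log2 fold change of -0.39 ± 0.0977 (limma adjusted p = 0.00756). The call was lost in 4 of 20 alternative settings. Among them were the fits without CsiRNA library 1 (-0.33, adjusted p = 0.0613) and without NEAT1siRNA library 3 (-0.35, adjusted p = 0.0507). The others were the limma fit with no filter (adjusted p = 0.0840) and a threshold of 0.5 on the log2 change.

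PFKFB4 (chr3:48517684-48562015, minus strand) had low values that lay in the opposite direction. It was at 0.69, 0.60 and 0.58 TPM in CsiRNA cells and at 1.05, 1.01 and 1.05 TPM in NEAT1siRNA cells, corresponding to 56, 49 and 58 recovered reads against 91, 93 and 85. The groups did not overlap, and the NEAT1siRNA mean was 166% of the control mean. A mean TPM under 1 kept it out of the main test. When limma-voom was run on genes with a mean of at least 10 recovered reads, a choice made after the data were seen, PFKFB4 was higher by 0.77 ± 0.155 on the log2 scale of reads (adjusted p = 0.00201). That model called 21.8% of 12705 genes. In the annotation PFKFB4 overlaps UCN2 on the same strand, and how reads in the overlap were assigned is not given in the sources used here.

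The makeup of the PFKFB family differed between the groups accordingly. PFKFB3 supplied 80.4%, 79.9% and 78.9% of the family's TPM in CsiRNA cells and 71.2%, 73.2% and 70.4% in NEAT1siRNA cells. PFKFB4 supplied 5.41%, 5.18% and 5.26% against 11.3%, 9.57% and 11.3%. The difference in mean share (NEAT1siRNA minus CsiRNA) was -8.16 percentage points for PFKFB3 and 5.45 for PFKFB4, and neither pair of groups overlapped. The 2 shares belong to 1 total and are not independent. With 3 libraries per group, a two-sided exact permutation test cannot give a p below 0.1, which both shares reached (0.28 after adjustment over the 7 shares compared). PFKFB2 was between 1.6 and 1.8 TPM in the 6 libraries, with a log2 fold change of -0.04 (adjusted p = 0.811).

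LDHA (chr11:18394560-18408425, plus strand) encodes the lactate dehydrogenase subunit that favors the conversion of pyruvate to lactate. It was at 312, 309 and 270 TPM in CsiRNA cells and at 275, 332 and 284 TPM in NEAT1siRNA cells. The groups overlapped, with NEAT1siRNA library 2 above every control value, and the log2 fold change was -0.00 with a 95% interval from -0.19 to 0.18 (limma adjusted p = 0.994). LDHB was at -0.05 (adjusted p = 0.764), and the LDHA share of the pair was 54.8% ± 0.0578 in CsiRNA cells and 55.6% ± 1.86 in NEAT1siRNA cells. LDHA has 6 annotated pseudogenes, HK2 has 1 and BNIP3 has 44, and how reads that match several copies were assigned is not given in the sources used here.

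**Figure D2:**
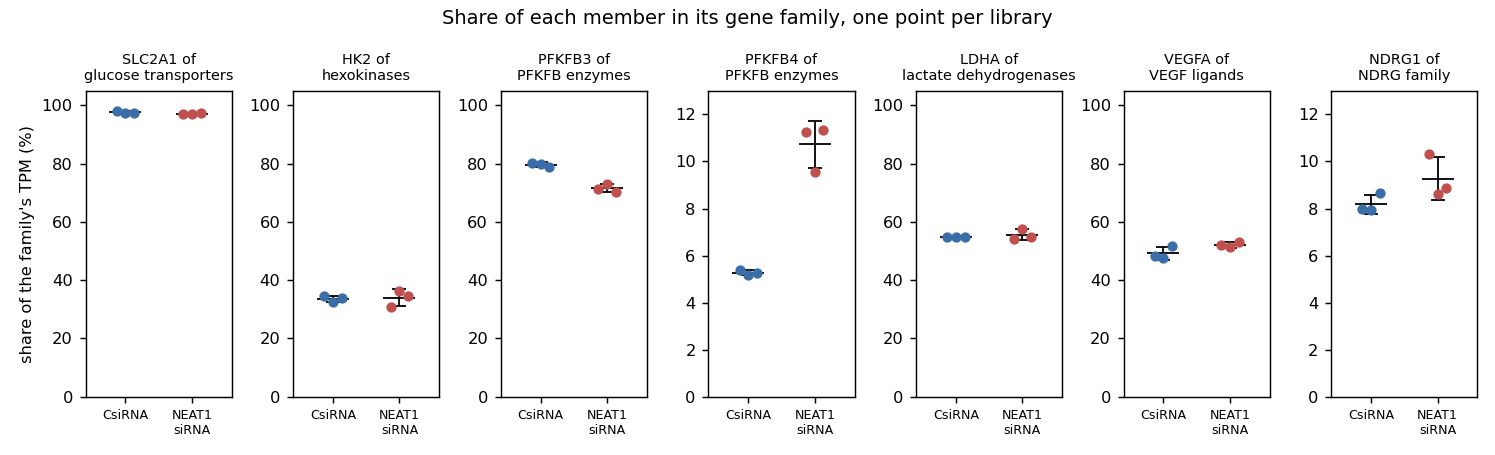
Share of a family's summed TPM (vertical axes, %) held by each of 7 genes, per library, with mean and SD. Only the PFKFB3 and PFKFB4 panels have groups that do not overlap, with differences of -8.16 percentage points for PFKFB3 and 5.45 for PFKFB4 (NEAT1siRNA minus CsiRNA).

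Across the whole glycolytic pathway, from a list of 33 genes of which 24 were tested, 6 were lower, 2 were higher and 16 were not called. With each library centred on its median gene, 7 were lower and 4 higher, beside 954 lower and 1158 higher of all 10721 genes. With the GC and length trend removed 7 were lower and 5 higher, beside 1765 lower and 1702 higher of 10440 genes. In the main test, 8.98% of all genes tested were lower and 4.99% higher. The median log2 fold change of the 24 genes was -0.03 against -0.04 over all genes tested. Without the 5 genes already described, 4 of 20 were lower and 2 higher. The 4 were PFKP (-0.44, adjusted p = 0.00189) and PFKM (-0.30, adjusted p = 0.0351), which encode phosphofructokinase subunits, HK1, and SLC16A1 (-0.42, adjusted p = 0.00433), which encodes the lactate transporter MCT1. PFKP fell from 50.7 ± 2.68 to 37.3 ± 2.59 TPM and SLC16A1 from 63.1 ± 6.30 to 46.9 ± 4.55 TPM (mean ± SD, n = 3). Those called higher were ALDOC (0.35, adjusted p = 0.0306), a low-abundance aldolase at 2.95 TPM in CsiRNA cells, and PDK3 (0.33, adjusted p = 0.0294), a kinase that restrains entry of pyruvate into mitochondria.

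The abundant enzymes between aldolase and pyruvate kinase did not pass the threshold. Named after their values were seen, ALDOA, TPI1, GAPDH, PGK1, PGAM1, ENO1 and PKM had log2 fold changes between -0.03 for PKM and 0.10 for GAPDH. The genes called lower in this list encode proteins of glucose entry, hexokinase, the phosphofructokinase step with its regulator, and lactate export. Other genes of the same steps were not called. They include HK2, PFKFB2 and, named after its values were seen, PFKL (0.09, limma adjusted p = 0.578). PFKFB4 had higher values and was not tested.

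**Figure D3:**
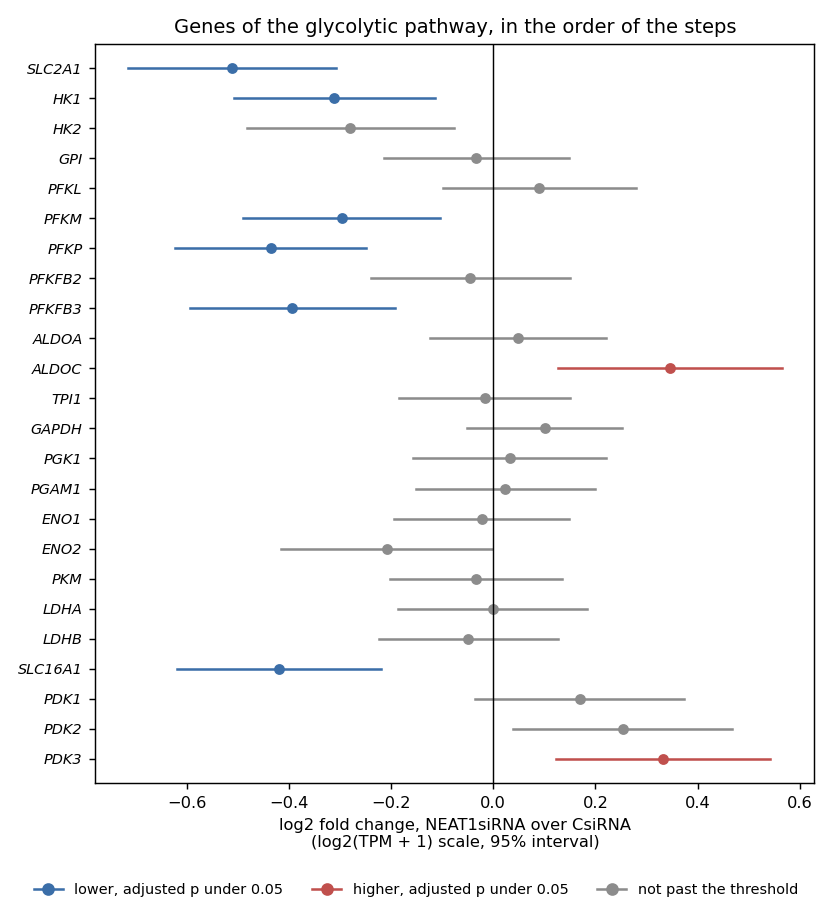
Log2 fold change of NEAT1siRNA over CsiRNA (horizontal axis, log2(TPM + 1) scale) with its 95% interval for the 24 tested genes of the glycolytic pathway, ordered from glucose uptake at the top to lactate export and the pyruvate dehydrogenase kinases. Blue marks the 6 genes called lower, red the 2 called higher and grey the 16 not called.

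CA9 encodes carbonic anhydrase IX, a cell surface enzyme that regulates pH outside hypoxic cells and is widely used as a marker of hypoxia. CA9 (chr9:35673928-35681159, plus strand) was near the limit of detection, with 7, 3 and 12 recovered reads in CsiRNA cells and 18, 18 and 10 in NEAT1siRNA cells. In TPM these were 0.256, 0.108 and 0.356 against 0.612, 0.580 and 0.364, so the lowest NEAT1siRNA value lay just above the highest control value in TPM and below it in reads. The voom model on at least 10 reads gave 1.22 ± 0.379 (adjusted p = 0.0290), and limma on log2(TPM + 1) without a filter gave 0.29 (adjusted p = 0.157). CA9 overlaps ARHGEF39 on the opposite strand, and whether counting used strand is not given. CA12, another membrane-bound carbonic anhydrase, was at 2.56, 2.47 and 2.42 TPM in CsiRNA cells and rose to 3.54, 3.70 and 3.58 TPM in NEAT1siRNA cells, a log2 fold change of 0.40 (adjusted p = 0.00438).

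VEGFA (chr6:43770184-43786487, plus strand) encodes vascular endothelial growth factor A, which drives blood vessel growth. It was at 23.3, 21.1 and 25.6 TPM in CsiRNA cells and at 24.4, 24.3 and 22.3 TPM in NEAT1siRNA cells. The groups overlapped, and the log2 fold change was 0.02 with a 95% interval from -0.17 to 0.22 (limma adjusted p = 0.907). Among the other ligands of the family, PGF fell by 0.43 on the log2 scale (adjusted p = 0.00396), from between 46 and 67 recovered reads to between 29 and 34. VEGFB (0.14, adjusted p = 0.378) and VEGFC (-0.27, adjusted p = 0.0590) did not pass the threshold. VEGFA supplied 49.2% ± 2.27 of the ligands' TPM in CsiRNA cells and 52.2% ± 0.979 in NEAT1siRNA cells, with overlapping values. Of the VEGF receptors, named after their values were seen, FLT1, KDR and FLT4 had at most 8 recovered reads in any library, whereas the coreceptor NRP1 was at 43.3 to 55.1 TPM.

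ADM (chr11:10305073-10307397, plus strand) encodes adrenomedullin, a secreted vasodilator peptide. Its level was 5.91, 5.66 and 5.54 TPM in CsiRNA cells and 3.54, 4.14 and 3.61 TPM in NEAT1siRNA cells. The groups did not overlap, and the log2 fold change was -0.50 ± 0.0945 (limma adjusted p = 0.000795). ADM2, which encodes the related peptide intermedin, was higher by 0.31 (adjusted p = 0.0481), from 1.31 ± 0.0754 to 1.87 ± 0.359 TPM. The receptor for both peptides pairs CALCRL with a RAMP protein. CALCRL, named after its values were seen, had 2, 2 and 3 recovered reads in CsiRNA cells and 10, 21 and 9 in NEAT1siRNA cells and was not tested.

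BNIP3 (chr10:131967684-131981967, minus strand) encodes a protein of the outer mitochondrial membrane that promotes mitophagy, the removal of mitochondria by autophagy. It was at 26.2, 27.3 and 24.4 TPM in CsiRNA cells and at 34.2, 43.9 and 36.1 TPM in NEAT1siRNA cells. All NEAT1siRNA values were higher, with a log2 fold change of 0.53 ± 0.0988 (limma adjusted p = 0.000633). BNIP3L, its close paralog and also a mitophagy receptor, was at 44.02, 44.8 and 41.6 TPM in CsiRNA cells and at 57.8, 81.3 and 65.9 TPM in NEAT1siRNA cells, a log2 fold change of 0.63 ± 0.103 (adjusted p = 0.000154). In both genes NEAT1siRNA library 2 was the highest of the 6. BNIP3 has a GC content of 41.9% and LDHA of 41.8%, the lowest among the 10 genes, and BNIP3L has 37.4%. NEAT1siRNA library 2 also had the strongest excess of GC-poor transcripts, with each library set against the mean of its own group. With the GC and length trend removed BNIP3 was at 0.53 (limma adjusted p = 6.24e-05). Whether read composition contributed to the changes of BNIP3 and BNIP3L was not tested.

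NDRG1 (chr8:133237175-133302022, minus strand) encodes a stress-responsive protein with roles in differentiation and vesicle trafficking. It was at 2.75, 2.65 and 2.77 TPM in CsiRNA cells and at 3.96, 3.59 and 3.36 TPM in NEAT1siRNA cells. The groups did not overlap, and the log2 fold change was 0.31 ± 0.0950 (limma adjusted p = 0.0277). The call was lost in 7 of 19 alternatives, including when any 1 of the 3 CsiRNA libraries or NEAT1siRNA library 1 was left out (adjusted p between 0.0573 and 0.114 in those 4). NDRG1 supplied 8.19% ± 0.405 of the family's TPM in CsiRNA cells and 9.28% ± 0.921 in NEAT1siRNA cells, with overlapping values. NDRG3, the most abundant member of that family, was at 0.21 (adjusted p = 0.115).

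**Figure D4:**
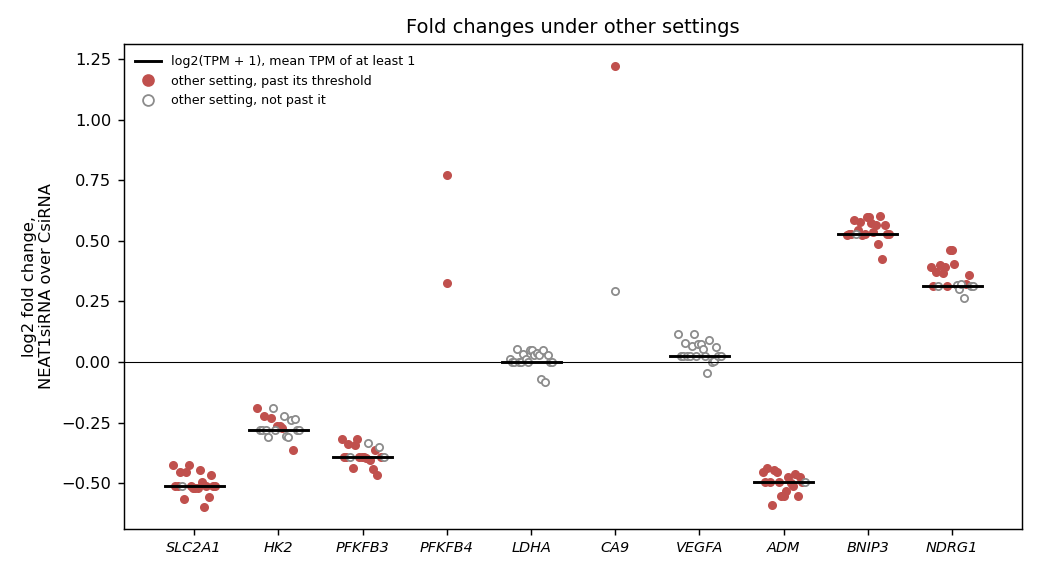
Log2 fold change of NEAT1siRNA over CsiRNA (vertical axis) for the 10 genes, with the value of the main test as a black bar and each other setting as a point, filled in red where it passed its threshold. PFKFB4 and CA9 have no bar and only 2 other settings each, the higher point on a log2 scale of reads. All points of SLC2A1, HK2, PFKFB3 and ADM lie below 0 and all points of BNIP3 and NDRG1 above it, while LDHA and VEGFA lie on both sides.

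The transcripts of the HIF pathway itself gave no called gene, with 0 of 9 tested in a list of 13 and a median log2 fold change of -0.10. Over all genes tested 14% were called, so 0 of 9 lies near that share and does not set these genes apart. None of the 9 reached an unadjusted limma p under 0.05 either, against 2942 of all 10721 genes tested. Voom on the recovered reads of the same 9 genes called 0 (3 at an unadjusted p under 0.05). With the GC and length trend removed, 2 of the 9 were called higher, beside 1702 of all 10440 genes in that fit. These were HIF1A and CITED2, a HIF-responsive inhibitor of coactivator binding named after its values were seen. HIF1A was at 103, 98.0 and 87.8 TPM in CsiRNA cells and at 96.1, 121 and 96.9 TPM in NEAT1siRNA cells, a log2 fold change of 0.12 (95% interval -0.09 to 0.32, adjusted p = 0.482). EPAS1 was at -0.12 (adjusted p = 0.417) and ARNT at -0.18 (adjusted p = 0.191). HIF alpha subunits are controlled mainly at the protein level, which was not measured here.

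Among 37 other genes known to be induced by hypoxia, 31 were tested, 8 were higher, 3 were lower and 20 were not called. Without NEAT1siRNA library 2, 7 were higher and 7 lower, beside 493 higher and 1590 lower of all 10721 genes in that fit. In the main test, the shares over all genes tested were 4.99% higher and 8.98% lower. The median log2 fold change of the 31 genes was 0.04. The 6 with the largest changes on this list were ZNF395, PPP1R3C, ANGPTL4, BNIP3L, EDN1 and AK4, and they went both ways. ANGPTL4, a secreted inhibitor of lipoprotein lipase, fell by 0.66 (adjusted p = 2.78e-05) and EDN1, which encodes the vasoconstrictor endothelin-1, fell by 0.57 (adjusted p = 0.000373).

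In the other direction, ZNF395, a zinc finger transcription factor, rose from 5.95 ± 0.102 to 11.7 ± 0.583 TPM (0.87, adjusted p = 3.29e-07). PPP1R3C, which targets protein phosphatase 1 to glycogen, rose by 0.81 on the log2 scale (adjusted p = 2.80e-06). AK4, a mitochondrial adenylate kinase, rose from 9.90 ± 0.715 to 14.3 ± 1.66 TPM (0.49, adjusted p = 0.00128), and BNIP3L is described above with BNIP3.

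**Figure D5:**
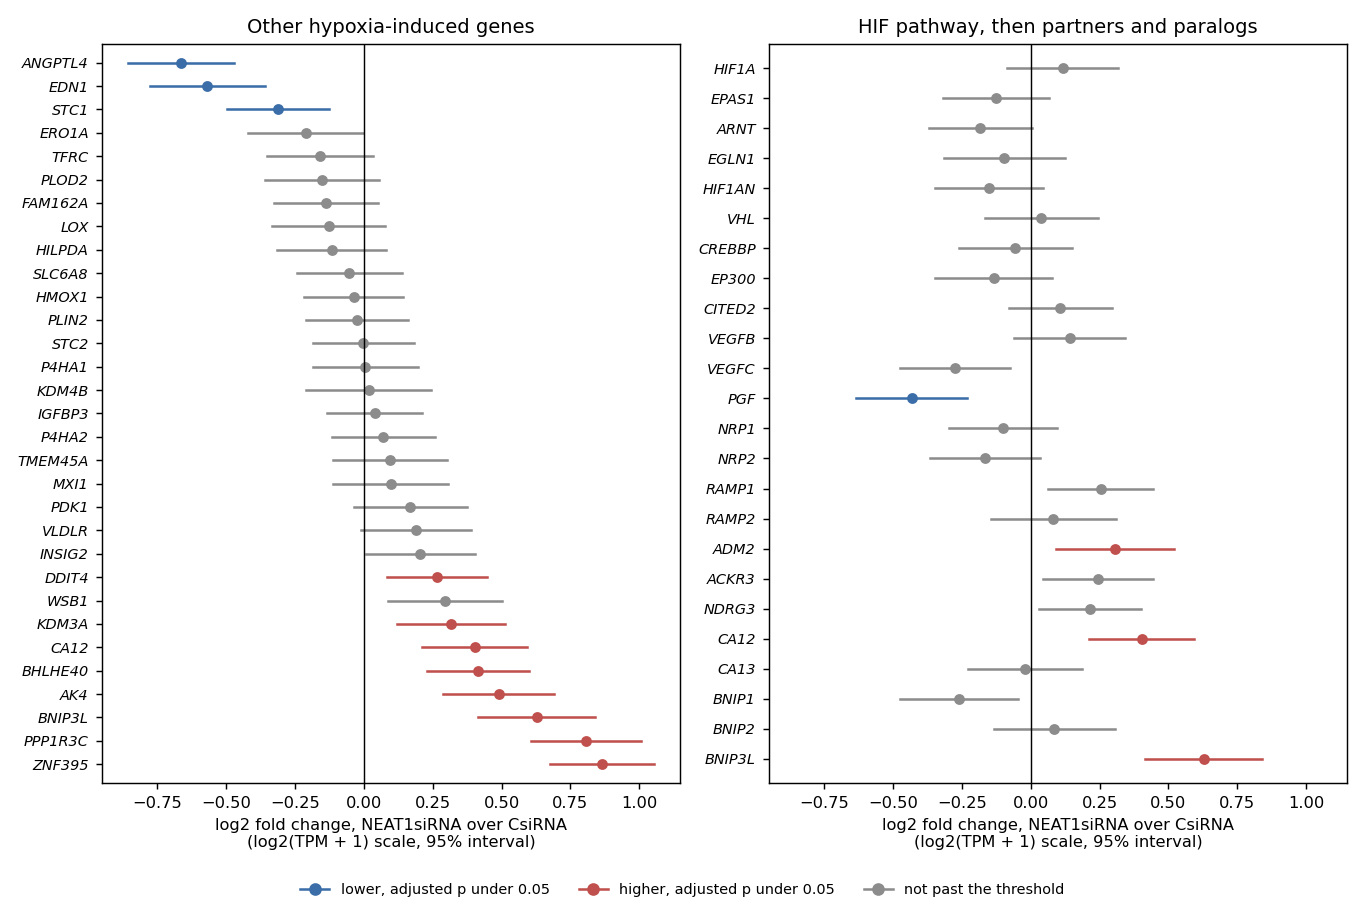
Log2 fold change of NEAT1siRNA over CsiRNA (horizontal axes, log2(TPM + 1) scale) with its 95% interval for 31 tested hypoxia-induced genes ordered by value (left) and for the tested genes of the HIF pathway followed by partners and paralogs of the 10 genes (right). Blue and red mark genes called lower and higher, with 3 and 8 on the left, and grey those not called. CA12 and BNIP3L appear in both panels.

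In the list of partners and paralogs of the 10 genes, 15 of 25 were tested, 3 were higher (BNIP3L, CA12 and ADM2), 1 was lower (PGF) and 11 were not called, with a median log2 fold change of 0.09. Among all genes tested, 4.99% were higher and 8.98% lower. Markers of the cell line were as follows. Of 6 mesenchymal genes, all were at 13.5 TPM or more in every library, with FN1 and CDH2 lower in NEAT1siRNA cells (-0.47 and -0.34, adjusted p = 0.00116 and 0.0186). ESR1 had no reads and PGR at most 2 per library, whereas ERBB2 was at 5.76 to 6.36 TPM. The epithelial markers EPCAM, CDH1 and KRT19 had at most 19 reads in any library. The leukocyte and endothelial markers PTPRC, PECAM1 and CDH5 had at most 14.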

How the data were processed

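Total RNA of BT-549 cells was analysed in 2 groups of 3 libraries, assigned by sample titles. The authors deposited TPM values per gene and library, and a table with a mean normalized count per gene over all libraries (used here as a signal only to work back reads) beside their own fold changes, standard errors and p-values, which were not used. Per the labels, a TruSeq Stranded mRNA kit was used, and the submitters' processing notes name STAR, DESeq2 and GRCh38. The annotation, the counting tool and the handling of strand are not given in the sources used here. Dividing TPM by the value of 1 read gave whole numbers (within 0.05) for 99.9% of values of genes with a mean count under 5 and for 98.6% between 5 and 50. The share was 69.2% between 50 and 500 and 12.9% beyond, so reads of abundant genes are estimates rounded to whole numbers.

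The main test was limma 3.58.1 in R 4.3.3 (lmFit and eBayes with trend) on log2(TPM + 1), keeping genes whose mean TPM over the libraries was 1 or more, NEAT1siRNA against CsiRNA, with Benjamini-Hochberg adjustment over 10721 genes. The script was tested on simulated reads without a GC trend, so that test does not cover the differences in read composition between these libraries. Shares within families were compared with two-sided exact permutation tests (Python 3.11.15, scipy 1.17.1). Genes named were the 10 members, from each other list up to 6 called genes with the largest change, the paralogs used for shares, HIF1A, EPAS1, ARNT, NEAT1 and the listed cell type markers, and other genes given with values are marked as chosen after their values were seen. The members and lists were chosen with earlier results of these data known, and 1 gene of the hypoxia-induced list is not reported here. The 6 libraries were compared in pairs over 8448 genes by chi-square, which per degree of freedom was 1.74 to 4.00 within groups and 5.16 to 8.70 between them, more than counting error gives, so all 6 were kept. Alternatives were another pseudocount, filters, scalings, a GC and length correction, voom on recovered reads, thresholds, a replicate block and leaving out each library.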

Additional observations from a re-analysis of the deposited data

How the results depend on the processing

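SLC2A1, ADM, BNIP3, PFKFB3 and NDRG1 kept their direction under every alternative that tested them, and NEAT1 was called lower in all 20 (log2 fold change -1.63 to -1.16). Calls over all genes moved from 1498 to 3467 with the GC and length trend removed, 2465 with voom, 2765 with voom on at least 10 reads (added after the data were seen), 505 with no filter, 719 at an adjusted p under 0.01, 314 at a log2 change of at least 0.5, and 759 to 2083 on leaving out a library (759 without CsiRNA library 1, 838 without NEAT1siRNA library 3). Calls among the 10 genes were 5 of 8 tested in the main test and 3 of 6 at a mean TPM of at least 5, where ADM and NDRG1 were not tested. They were 2 of 10 with no filter, 8 of 10 with voom on at least 10 reads and 2 of 8 at a change of at least 0.5. On leaving out a library they were 3 to 6 of 8 (3 without CsiRNA library 1). With no filter SLC2A1, PFKFB3, BNIP3 and NDRG1 were not called (adjusted p = 0.0519, 0.0840, 0.0516 and 0.0995). Glycolytic genes called moved from 8 to 12 with the GC trend removed and with voom on at least 10 reads, 11 with median centring, quantile normalization and voom, 2 with no filter, 4 at 0.01, 1 at a change of 0.5, and 3 to 8 without a library (3 without CsiRNA library 1, 5 without CsiRNA library 2, 4 without NEAT1siRNA library 3). HIF pathway genes moved from 0 to 2, HIF1A and CITED2, with the GC trend removed. Hypoxia-induced genes moved from 11 to 18 with the GC trend removed, 6 with no filter, 5 at a change of 0.5, and 8 to 14 without a library. Without NEAT1siRNA library 2, 7 of them were higher and 7 lower, beside 493 higher and 1590 lower over all genes. Partners moved from 4 to 8 with the GC trend removed, median centring, quantile normalization, either voom and without the 4 short noncoding RNAs, to 1 at a mean TPM of at least 5 and at a change of 0.5, to 2 with no filter, and to 7 without NEAT1siRNA library 2. The uncalled LDHA value became positive with the GC trend removed (0.011), median centring (0.055), quantile normalization (0.033), voom (0.049, also on at least 10 reads), without the short noncoding RNAs (0.031), and ranged from -0.084 to 0.051 without a library. VEGFA turned to -0.043 without CsiRNA library 2 (up to 0.089 without another). The share difference ranged from -0.936 to 1.91 percentage points for HK2 and from -0.245 to 1.52 for LDHA on leaving out a library, negative without NEAT1siRNA library 2 for both. The causes were not tested.

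Deviations of same-numbered libraries correlated at -0.030, 0.25 and -0.11, and those of differently numbered libraries between -0.40 and 0.40. These correlations cannot decide whether libraries were paired by replicate number. A fit with the replicate block called 1640 genes, 5 of the 10 described here, 8 glycolytic, 0 HIF pathway, 11 hypoxia-induced and 5 partner genes, NEAT1 at -1.41, and with the block and the GC trend removed together 3384 genes, 2 HIF pathway, 18 hypoxia-induced and 8 partner genes, LDHA at 0.011. Low depth limits CA9 and CALCRL.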
